A study of Mus musculus with 11 samples.

Results

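The genes described here are 10 immediate-early genes, Fos, Fosb, Jun, Junb, Jund, Egr1, Ier2, Dusp1, Atf3 and Nr4a1, several of which are also known targets of cyclic AMP (cAMP). They were taken by symbol from the 23282 entries of the count files, and all 10 were found once. RNA was sequenced from colonic macrophages with the surface pattern CD45+CD11b+Ly6G-Ly6C-MHCII+CD64+, in mice given 2.5% dextran sodium sulphate (DSS), which injures the colon lining, in their water over 5 days. The strains were wild type (WT) and Csf1r-EP4-/-, here labelled KO, and the titles give day 0 and day 39. The groups, written WT d0, KO d0, WT d39 and KO d39 after label and day, held 2, 3, 3 and 3 libraries. The mutant strain is given by its name alone, which joins Csf1r, a gene of the macrophage lineage, to EP4; the labels describe neither the construct nor the deleted exons, and give no age or sex of the mice. The DSS protocol is entered for all 11 libraries, day 0 included, so the labels do not say whether day 0 mice had received it.

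Immediate-early genes are transcribed within minutes of a stimulus without new protein synthesis, and their messages are short-lived. EP4, encoded by Ptger4, is a prostaglandin E2 receptor coupled to Gs; it raises cAMP, which activates protein kinase A and the transcription factor CREB, and CREB binds the cAMP response element (CRE) in promoters such as that of Fos. In macrophages these genes answer to microbial products, growth factors and prostaglandins, and they are also known to be induced while tissue is dissociated into single cells, a step the labels do not describe.

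The core of the CRE, TGACG, is the element through which EP4 signalling is known to act on such genes. Of the promoters that hold it, 4 are shown: those of Fos, Dusp1 and Nr4a1, which hold more than 1 copy, and that of Atf3, with 1 copy, as its differences between groups are described with those of Fos and Dusp1; Fosb and Junb also hold 1 copy each and are not printed. Each is the 300 bases from 250 before to 50 after the RefSeq transcription start (GRCm38.p6), written 5′ to 3′ on the gene's strand, with TGACG, or CGTCA on the opposite strand, in capitals. The Fos window is chr12:85473640-85473939 (+), that of Dusp1 is chr17:26508423-26508722 (-), that of Nr4a1 is chr15:101266596-101266895 (+) and that of Atf3 is chr1:191183284-191183583 (-).
Fos: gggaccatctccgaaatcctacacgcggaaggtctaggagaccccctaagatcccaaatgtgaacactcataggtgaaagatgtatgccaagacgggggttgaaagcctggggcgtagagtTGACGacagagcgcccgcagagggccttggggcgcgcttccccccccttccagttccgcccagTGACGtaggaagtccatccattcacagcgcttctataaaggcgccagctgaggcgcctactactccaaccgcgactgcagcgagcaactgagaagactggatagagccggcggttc
Dusp1: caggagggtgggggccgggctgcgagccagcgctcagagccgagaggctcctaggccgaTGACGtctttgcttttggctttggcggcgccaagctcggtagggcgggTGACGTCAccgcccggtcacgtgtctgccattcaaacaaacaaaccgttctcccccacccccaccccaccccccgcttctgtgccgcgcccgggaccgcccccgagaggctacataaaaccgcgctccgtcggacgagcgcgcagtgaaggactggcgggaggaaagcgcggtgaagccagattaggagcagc
Nr4a1: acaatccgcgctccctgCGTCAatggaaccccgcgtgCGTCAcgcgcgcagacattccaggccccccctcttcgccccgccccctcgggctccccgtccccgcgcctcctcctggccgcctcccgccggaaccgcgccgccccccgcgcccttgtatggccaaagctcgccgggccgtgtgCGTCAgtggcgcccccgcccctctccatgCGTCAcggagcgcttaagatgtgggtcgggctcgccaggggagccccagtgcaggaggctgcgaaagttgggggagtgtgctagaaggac
Atf3: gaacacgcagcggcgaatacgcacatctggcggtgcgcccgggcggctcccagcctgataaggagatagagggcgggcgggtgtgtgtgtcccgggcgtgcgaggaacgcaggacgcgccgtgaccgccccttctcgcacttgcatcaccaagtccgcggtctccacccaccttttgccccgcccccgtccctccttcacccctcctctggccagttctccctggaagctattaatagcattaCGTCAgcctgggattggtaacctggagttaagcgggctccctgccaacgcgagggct
Of the 10 genes, 8 had a promoter in the RefSeq table, all but Egr1 and Ier2. The core TGACG, sought on both strands, was in 6 of these 8 (Fos, Fosb, Junb, Dusp1, Atf3 and Nr4a1), and in 20.8% of the 32851 promoters of the table. Nr4a1 had 4 copies, Dusp1 3, of which 2 overlap, and Fos 2. Dusp1 alone among the 8 held the whole palindrome TGACGTCA, which contains the core on both strands and occurred in 1.79% of all promoters. The AP-1 site TGAGTCA on either strand was in 0 of the 8, against 5.20% of all promoters, and the CArG box was in 0 of the 8, against 1.63%. These are matches of letters within the 300 bases and were not measured as binding sites. Sites outside these windows, and any of Egr1 and Ier2, are not covered.

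Library totals ran from 4003299 to 14207919 counts, the 3 highest being the libraries labelled KO d0. The targeted gene, Ptger4, had 0 and 0 counts in the libraries labelled WT d0, 1350, 0 and 890 in KO d0, 1481, 152 and 7286 in WT d39, and 1, 8 and 4501 in KO d39. Both WT d0 libraries, at 0, and the 3 libraries labelled KO with 890 or more went against their labels, although a read near the 3′ end need not show which exon is deleted. All directions between genotypes below therefore refer to the libraries as labelled. Of the macrophage and sort markers, 7 of 18 listed had at least 100 counts in every library, among them H2-Ab1 and Csf1r. Of the genes of the positive sort markers, Ptprc (CD45), Itgam (CD11b) and Fcgr1 (CD64) had 10 counts or fewer in 5, 4 and 6 libraries. Levels are given in CPM, counts per 1000000 of the TMM-scaled sum of the tested genes of a library. Replicates 2 and 3 of KO d0 stood apart: markers of stroma, endothelium and skeletal muscle summed to 43056 and 43012 CPM there, against 5500 to 25374 in the other 9 libraries. All results on KO d0 rest partly on these libraries.

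The 10 genes were among the minority that were found in nearly all libraries. Fos, Fosb, Jun, Junb, Jund, Egr1, Dusp1 and Atf3, 8 of the 10, had at least 100 counts in every library, as did 252 of all 23282 entries (1.08%) and 244 (23.2%) of the 1052 that averaged 1000 counts or more. The exceptions were Ier2 and Nr4a1, each with at least 100 counts in 9 of 11 libraries. Of the 110 values of the 10 genes, 3 were 10 counts or fewer, against 20.3% of the values of those 1052 genes. These shares were not matched for abundance: 758 of the 1052 genes averaged 1000 to 2500 counts, as did only Ier2 of the 10. Together the 10 genes took 0.428% to 1.84% of the counts of a library. In RefSeq none of the 10 overlaps another gene, and no other symbol had the same counts as any of them in all libraries.

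The coefficient of variation (CV) of CPM over the 11 libraries was lowest for Egr1, at 47.0%, followed by Jun at 47.9%, Junb at 48.3%, Fos at 51.4% and Dusp1 at 51.9%. It was 59.4% for Jund, 66.9% for Fosb, 80.8% for Atf3, 95.4% for Nr4a1 and 103% for Ier2. All 10 lay below the median of 105% over the 1052 genes. The CV of a gene went down with its count: the median was 115% over the 758 genes averaging 1000 to 2500 counts, 77.4% over the 187 genes from 2500 to 5000, and 58.6% over the 107 genes from 5000. Read against genes of like abundance, 4 of the 5 most abundant (Fos, Jun, Junb and Dusp1, but not Jund) were below the median of their class, as were Fosb and Egr1 and, in the lowest class, Ier2, while Atf3 and Nr4a1 were above it.

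**Figure D1:**
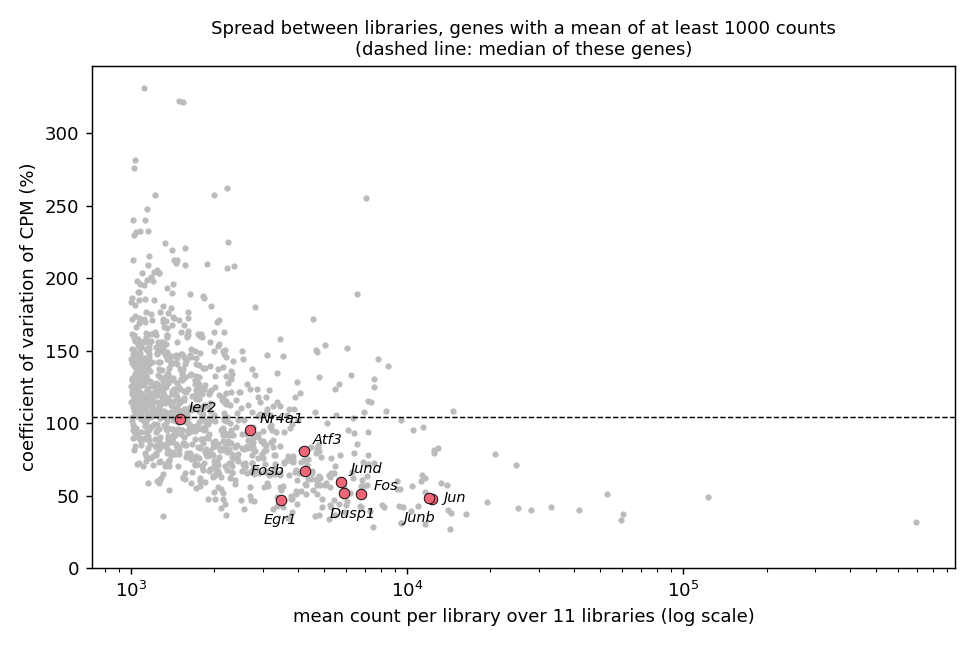
Coefficient of variation of CPM (%) over the 11 libraries against mean count per library (log scale), 1 point per gene averaging 1000 counts or more; the 10 immediate-early genes are in red and the dashed line is the median of 105%. Egr1, Jun and Junb lie lowest of the 10, at 47.0% to 48.3%, and Ier2 is nearest to the median.

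The FOS proteins do not bind DNA as homodimers and pair with JUN proteins to form AP-1. Fos, the first of them, was at 1122 and 828 CPM in WT d0, 1694, 448 and 409 CPM in KO d0, 2651, 1699 and 2073 CPM in WT d39, and 844, 1509 and 1822 CPM in KO d39. Every WT d39 library was above all 5 day 0 libraries, the nearest being 1699 in WT d39 and 1694 in KO d0 replicate 1, while KO d39 overlapped every other group. In raw counts Fos stood at 6278 and 3515 in WT d0, 10544, 3485 and 6242 for KO d0, 8733, 9235 and 9463 for WT d39 and 3263, 7636 and 6324 for KO d39. The group means of Fos were 975 CPM ± 207 (SD, n = 2) in WT d0, 850 CPM ± 731 (n = 3) in KO d0, 2141 CPM ± 480 (n = 3) in WT d39 and 1392 CPM ± 500 (n = 3) in KO d39. In order of mean, Fos was thus highest in WT d39, then KO d39, and neighbouring groups in that order overlapped. Fosb, a close relative of Fos, ranged from 244 to 1784 CPM, with 8195 and 1841 counts in WT d0, 11104, 1897 and 6184 in KO d0, 2858, 2577 and 2775 in WT d39, and 5167, 2835 and 1245 in KO d39. Its values overlapped between all groups, and the WT d39 libraries were the most alike, at 650 CPM ± 200 (n = 3).

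The JUN proteins are the partners of FOS, JUN itself a strong activator, JUNB often a weaker one and JUND the member most often present in unstimulated cells. Jun was at 1861 and 2717 CPM in WT d0, 3172, 974 and 805 CPM in KO d0, 4276, 1289 and 3004 CPM in WT d39, and 1936, 3992 and 3327 CPM in KO d39. Its raw counts were 10419 and 11530 in WT d0, 19742, 7579 and 12300 for KO d0, 14087, 7006 and 13714 for WT d39 and 7485, 20203 and 11547 for KO d39. The lowest values were in KO d0 replicates 2 and 3. Its means of 2289 CPM ± 605 (SD, n = 2) in WT d0, 1651 ± 1321 (n = 3) in KO d0, 2856 ± 1499 (n = 3) in WT d39 and 3085 ± 1049 (n = 3) in KO d39 all came from overlapping ranges. Junb was at 3324 and 1428 CPM in WT d0, 4153, 1669 and 292 CPM in KO d0, 2100, 1846 and 3539 CPM in WT d39, and 2424, 1801 and 3495 CPM in KO d39. Raw Junb counts were 18605 and 6060 in WT d0, 25845, 12979 and 4463 for KO d0, 6918, 10036 and 16159 for WT d39 and 9374, 9113 and 12129 for KO d39. KO d0 held both the highest and the lowest Junb value of the study. Jund ranged from 356 CPM, in KO d0 replicate 3, to 2378 CPM, in WT d39 replicate 1, with means of 864 CPM ± 329 (n = 2) in WT d0, 1175 ± 872 (n = 3) in KO d0, 1267 ± 966 (n = 3) in WT d39 and 1096 ± 611 (n = 3) in KO d39. Jund had raw counts of 6139 and 2678 in WT d0, 13015, 8378 and 5443 for KO d0, 7835, 4362 and 2838 for WT d39 and 5671, 1979 and 4966 for KO d39.

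Egr1 encodes a zinc-finger transcription factor induced through the MAP kinase pathway. It was at 201 and 864 CPM in WT d0, 847, 747 and 483 CPM in KO d0, 777, 550 and 983 CPM in WT d39, and 138, 682 and 334 CPM in KO d39. Raw counts of Egr1 were 1127 and 3666 in WT d0, 5269, 5810 and 7377 for KO d0, 2558, 2989 and 4489 for WT d39 and 534, 3453 and 1159 for KO d39. The lowest values were 1 library of KO d39 and 1 of WT d0, and all groups overlapped. Atf3, a factor of the ATF/CREB family that is induced by stress and restrains inflammatory genes in macrophages, was at 1445 and 519 CPM in WT d0, 821, 263 and 73.3 CPM in KO d0, 659, 760 and 1557 CPM in WT d39, and 2577, 546 and 521 CPM in KO d39. In raw counts Atf3 had 8086 and 2203 in WT d0, 5112, 2048 and 1120 for KO d0, 2172, 4132 and 7109 for WT d39 and 9963, 2761 and 1808 for KO d39. The highest and lowest Atf3 values differed 35.2-fold, and the highest was replicate 1 of KO d39, while its replicates 2 and 3 were below all 3 libraries of WT d39. Nr4a1, an orphan nuclear receptor that limits macrophage activation and is a direct CREB target, had 2724 and 9 counts in WT d0, 9198, 303 and 5618 in KO d0, 569, 3428 and 3012 in WT d39, and 91, 1841 and 2900 in KO d39. In every group but WT d39, the lowest Nr4a1 count was more than 20 times below the highest.

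Dusp1 encodes the phosphatase MKP-1, which switches off p38 and JNK and is raised by cAMP and glucocorticoids. It was at 2127 and 1851 CPM in WT d0, 1220, 321 and 442 CPM in KO d0, 1014, 956 and 1235 CPM in WT d39, and 693, 1740 and 760 CPM in KO d39. Both WT d0 libraries were above all 9 other libraries of the study. The Dusp1 raw counts were 11906 and 7857 in WT d0, 7591, 2493 and 6750 for KO d0, 3340, 5200 and 5641 for WT d39 and 2679, 8807 and 2636 for KO d39. The group means of Dusp1 were 1989 CPM ± 195 (SD, n = 2) in WT d0, 661 ± 488 (n = 3) in KO d0, 1069 ± 147 (n = 3) in WT d39 and 1064 ± 586 (n = 3) in KO d39. Ier2, a small nuclear protein of little-known function, was the least evenly detected, with 1093 and 1 counts in WT d0, 2388, 937 and 5296 in KO d0, 316, 225 and 2887 in WT d39, and 654, 2 and 2693 in KO d39. Its near-absence in 1 library of WT d0 and 1 of KO d39 was not shared with any other of the 10 genes except, for the former, Nr4a1.

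**Figure D2:**
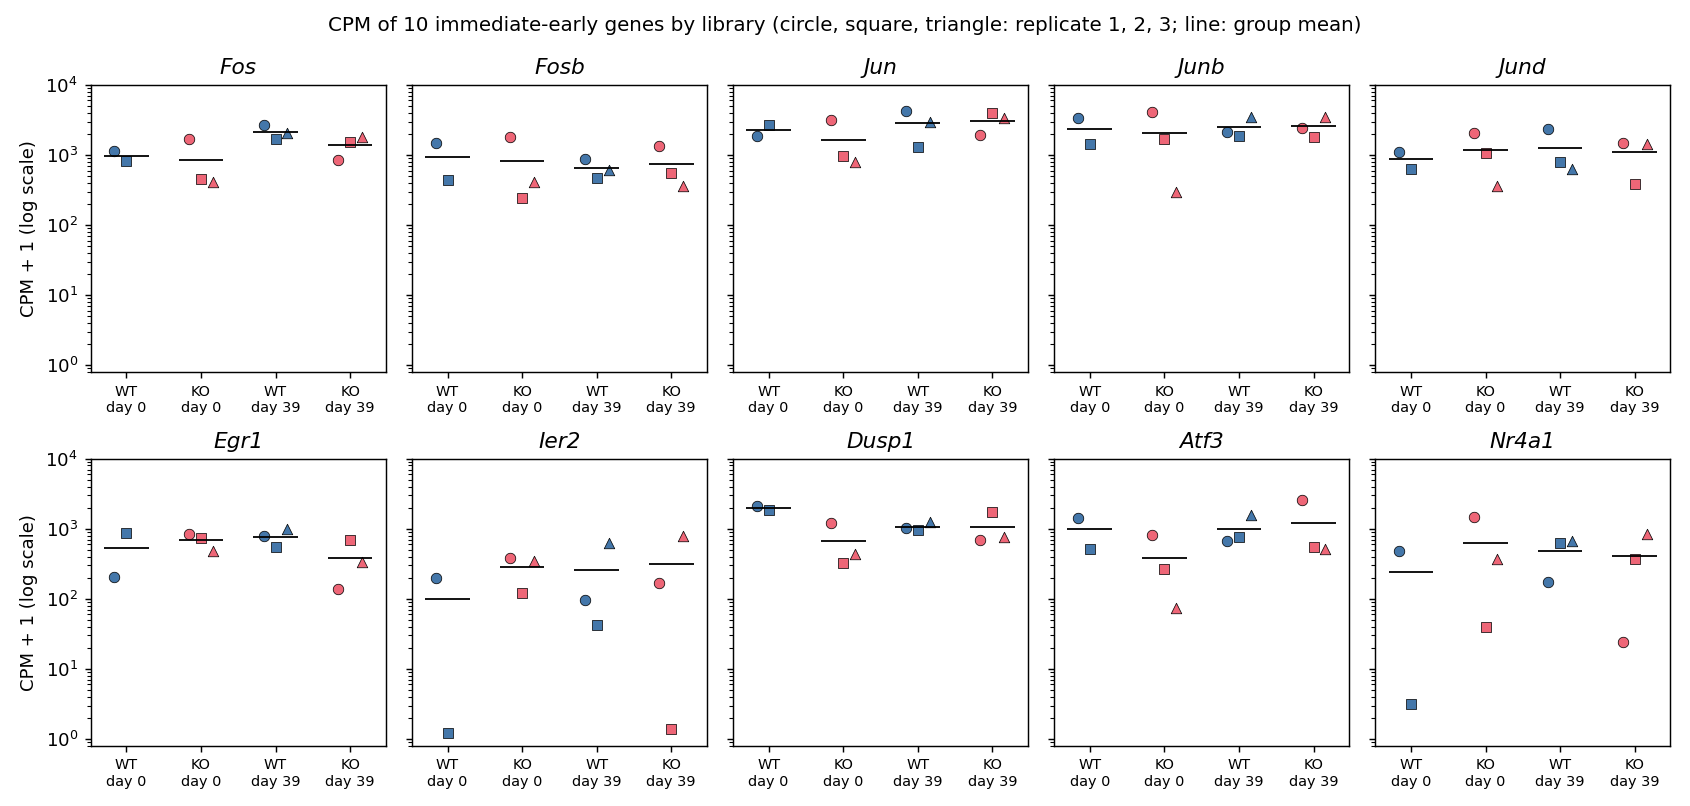
CPM + 1 (log scale) of each gene in each library, by group; blue is labelled WT, red labelled KO, markers are replicates 1 to 3 and the line is the group mean. Dusp1 is highest in both WT d0 libraries, Fos in WT d39 lies above Fos in WT d0, and Ier2 and Nr4a1 drop to 10 counts or fewer in 2 and 1 libraries.

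The first comparison is of strains within a day. As EP4 signals through cAMP, the 10 genes include known targets of its pathway. At day 0, edgeR called 0 of the 10 between the libraries labelled KO and WT, with a background of 0.0143% of 6987 tested genes called. Dusp1 had the largest difference among the 8 evenly detected genes, log2 -1.59 (SE 1.23, edgeR adjusted p = 0.470, 95% interval -4.01 to 0.83), and lay lower in 3 of 3 KO libraries than in either WT library. Such separation was seen for 1 of the 10 with KO lower and 0 of the 10 with KO higher, against 5.25% and 6.73% of tested genes. Atf3 differed by log2 -1.35 (SE 1.38, edgeR adjusted p = 0.638). The median log2 fold change was -0.21 over the 10 genes, with 4 higher and 6 lower, and 1.08 over all tested genes, a contrast in which scaling moves the median of all genes, to 0 under upper quartile. Without KO d0 replicates 2 and 3, which leaves 1 KO d0 library that is assumed to vary like the other groups, the differences of Fos, Fosb, Jun and Junb changed sign, to log2 fold changes of 0.70, 0.79, 0.39 and 0.69, and Dusp1 stood at -0.80 and Atf3 at -0.37. Leaving out 1 library moved Atf3 to -0.56 without WT d0 replicate 1, to -0.88 without KO d0 replicate 3 and to -2.55 without KO d0 replicate 1, which also moved Dusp1 to -2.39. Upper-quartile scaling gave -3.20 for Dusp1 and -2.57 for Atf3, and limma-voom -2.31 for Atf3.

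At day 39 edgeR again called 0 of the 10, with 0.0286% of tested genes called. Egr1 differed by log2 -1.0003 (SE 1.55, edgeR adjusted p = 0.942, 95% interval -4.04 to 2.04) and Fos by -0.62 (SE 1.02, edgeR adjusted p = 0.960, 95% interval -2.61 to 1.37). The Egr1 value was -1.70 without KO d39 replicate 2 and -0.61 without replicate 1, which took Fos to -0.36. The groups overlapped in CPM for all 10, while 3.41% of tested genes were separated with KO higher and 3.99% with KO lower. The median log2 fold change was 0.02 over the 10, with 5 higher and 5 lower, and 0 over all tested genes. The narrowest interval, that of Jun, ran from -1.40 to 1.63 on the log2 scale.

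The day contrasts ask how the macrophages differed late in the course. In libraries labelled WT, edgeR called 0 of the 10 and 0.0143% of tested genes. Fos differed by log2 1.13 (SE 1.17, edgeR adjusted p = 0.633) and was higher in 3 of 3 day 39 libraries than in either day 0 library. Dusp1 differed by -0.90 (SE 1.23, edgeR adjusted p = 0.745), with all 3 day 39 libraries below both of day 0. These were 1 gene of the 10 separated upward and 1 downward, where 12.7% and 4.72% of tested genes were. The median log2 fold change was 0.43 over the 10, with 8 higher and 2 lower, against 1.64 over all tested genes. Under upper-quartile scaling the Fos value changed sign, to -0.55 (edgeR adjusted p = 0.872), that of Dusp1 went to -2.62, and the median of all genes moved to 0.48. Scaled to 7 macrophage genes, Dusp1 was at -0.49.

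In libraries labelled KO, edgeR called 0 of the 10 and 0.157% of tested genes. Atf3 differed by log2 1.65 (SE 1.29, edgeR adjusted p = 0.485, 95% interval -0.87 to 4.18) and Jun by 0.90 (SE 0.78, edgeR adjusted p = 0.556). Day groups overlapped for all 10 genes, while 8.07% of tested genes were separated with day 39 higher and 3.21% with day 39 lower. The median was 0.24 over the 10 genes and 0 over all. Without KO d0 replicates 2 and 3 the values were -0.10 for Jun and 0.48 for Atf3. Without KO d0 replicate 1 they were 1.80 and 2.86, without replicate 2 Jun was at 0.57, and without KO d39 replicate 1 Atf3 stood at 0.44. With unfiltered genes Jun was at 0.57. Limma-voom gave 1.49 for Jun and 2.24 for Atf3, and scaling to 7 macrophage genes 2.26 for Atf3.

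Averaged over both genotypes, day 39 against day 0 gave 0 calls among the 10 and 0.301% of tested genes called by edgeR. Fos had the largest difference, 0.92 (SE 0.78, log2, edgeR adjusted p = 0.538), then Atf3 with 0.83 (SE 0.96, edgeR adjusted p = 0.700). Under upper-quartile scaling these were -0.054 and -0.014; Atf3 was at 0.55 with library size only and at 1.31 scaled to 7 macrophage genes. Without KO d0 replicates 2 and 3 they were 0.31 and 0.18, and Atf3 ran from 0.17, without KO d39 replicate 1, to 1.44, without KO d0 replicate 1, where Fos was at 1.42. Without WT d0 replicate 2 Atf3 was at 0.54. The days overlapped for all 10 genes, while 1.6% of tested genes were separated with day 39 higher and 0.157% with day 39 lower. The median log2 fold change was 0.21 over the 10, with 7 higher and 3 lower, and 0.76 over all tested genes, of which 59.8% were higher. The interaction, whether the genotype difference depended on the day, gave 0 of the 10 and 0% of tested genes, with 1006 genes at an unadjusted p under 0.05, none of them among the 10. Its largest values among the evenly detected genes were 1.64 (SE 1.87, edgeR adjusted p = 0.745) for Atf3 and 1.58 (SE 1.67, edgeR adjusted p = 0.706) for Dusp1. Without KO d0 replicates 2 and 3 they were 0.58 and 0.77, without KO d0 replicate 1 they were 2.84 and 2.38, and under upper-quartile scaling 2.70 and 3.11. Atf3 also moved to 0.53 without KO d39 replicate 1 and to 0.78 without WT d0 replicate 1, and Dusp1 to 1.04 without KO d39 replicate 2. In each of the 6 contrasts 0 of the 10 genes had an unadjusted p under 0.05, a level reached by 6.68% to 19.2% of tested genes. DESeq2, limma-voom and the other 19 settings tried also called 0 of the 10 in every contrast, with a smallest adjusted p of 0.140. For genotype at day 0, DESeq2 called 1249 of 6987 tested genes and limma-voom 178. Counts for the other contrasts are given at the end.

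**Figure D3:**
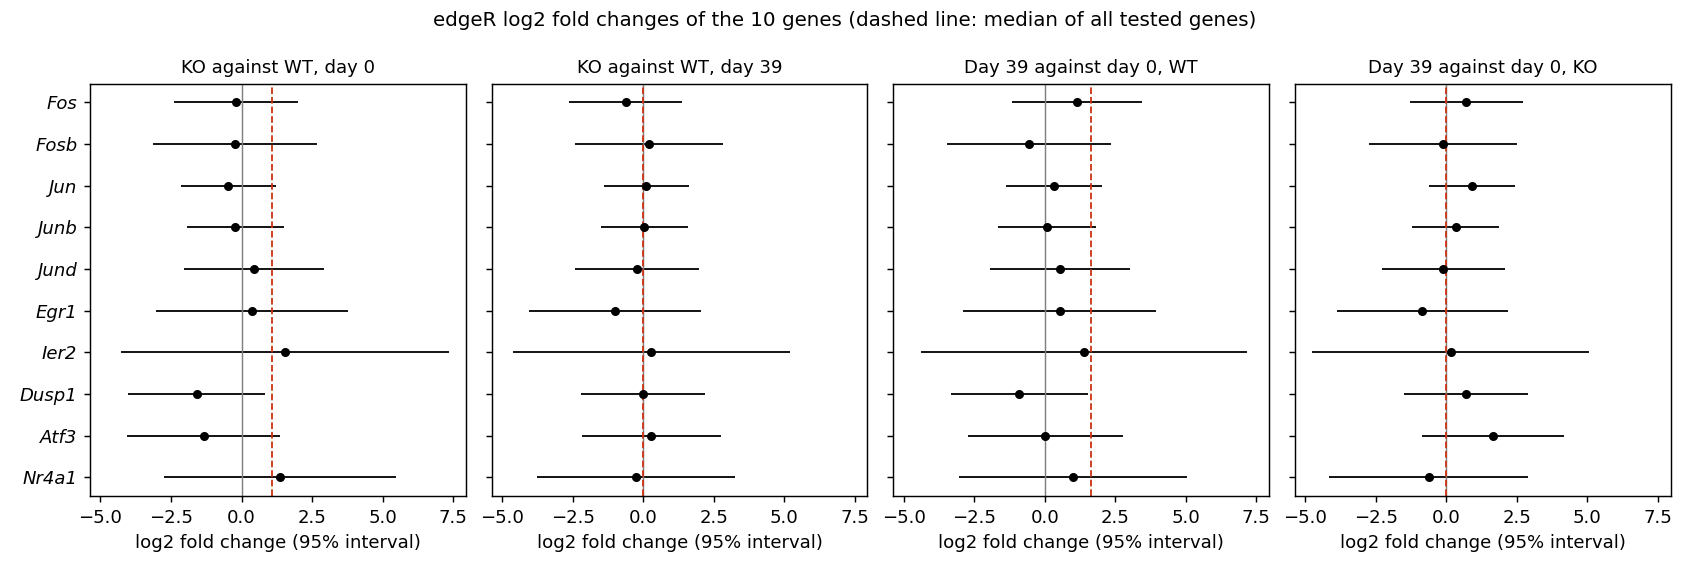
edgeR log2 fold changes of the 10 genes with 95% intervals in the 4 simple contrasts; the dashed red line is the median of all tested genes and the grey line is 0. Every interval spans 0, and those of Ier2 and Nr4a1 are the widest in each panel.

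The summed level of the 10 genes was lowest in the libraries lowest in macrophage genes. It was 3979 CPM in KO d0 replicate 3 and 5903 in replicate 2, the lowest of the study, and 17646 in replicate 1, the highest. Taken singly, 5 of the 10 were lower in replicate 2 than in all 9 libraries outside this pair, and 6 in replicate 3, while Egr1 was lowest in KO d39 replicate 1 and Ier2 and Nr4a1 in WT d0 replicate 2. For 10 of 10 genes replicate 1 was the highest of the 3 KO d0 libraries, which held for 28.1% of tested genes. Replicates 2 and 3 were also lowest in 7 macrophage genes (H2-Ab1, H2-Aa, Cd74, C1qa, C1qb, C1qc and Csf1r), at 14765 and 11982 CPM against 17703 to 53611 CPM in the other libraries, and highest in stromal, endothelial and muscle markers. In bulk RNA, fewer macrophages and less of their RNA per cell cannot be told apart. The part of this make-up in the contrasts above was not tested: the fits without these libraries rest on 1 KO d0 library.

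Counted per 1000 counts of these 7 genes, a scale chosen after seeing the data, the 10 genes together stood at 392 and 268 in WT d0, 329, 400 and 332 in KO d0, 601, 420 and 472 in WT d39, and 656, 449 and 580 in KO d39. All 6 day 39 libraries were thus above all 5 of day 0 on this scale, and the 3 KO d0 libraries lay between 329 and 400. In CPM the same sum overlapped between days, from 3979 to 17646 at day 0 and from 9047 to 14992 at day 39. How often sums of other genes separate on this scale was not tested. Fos alone was separated between days on this scale, from 30.6 ± 3.98 (SD, n = 5) at day 0, where the highest was 34.1, to 72.4 ± 20.3 (n = 6) at day 39, where the lowest was 47.7. Separation was seen for 1 of the 10 with day 39 higher and 0 of the 10 with day 39 lower, against 1.67% and 0.114% of tested genes. The mean was higher at day 39 for 9 of the 10, all but Egr1, and for 50.2% of tested genes. The median log2 ratio of the day means was 0.34 over the 10 and 0.016 over all tested genes. In the main edgeR fit averaged over genotypes, a different measure, the medians lay the other way, 0.21 over the 10 and 0.76 over all. The ratio was 2.36-fold for Fos, 1.87-fold for Jun, 1.499-fold for Junb and 1.35-fold for Jund, between 1.11-fold and 1.19-fold for Fosb, Ier2, Dusp1 and Nr4a1, and 0.825-fold for Egr1. That of Atf3, 2.58-fold, was 1.59-fold without KO d39 replicate 1, which stood at 145.6 where the other day 39 libraries ran from 21.1 to 49.3. Leaving out 1 library took the ratios of Fosb, Ier2, Dusp1 and Nr4a1 below 1 and that of Egr1 above it, and that of Ier2 ran from 0.707-fold, without KO d39 replicate 3, to 2.16-fold, without KO d0 replicate 3. In the edgeR fit on this scale 0 of the 10 were called, and edgeR's median log2 fold change of all tested genes, averaged over genotypes, was 0.85. In that contrast 0 of the 10 and 1373 of 6987 tested genes had an unadjusted edgeR p under 0.05. A lower level of the 7 genes at day 39 and a higher level of the 10 genes cannot be told apart by this ratio. Epithelial markers had summed levels of 466 to 2144 CPM at day 0 and 1816 to 10762 CPM at day 39; all 16 were listed, none was at 0 in every library, and their part in the result was not tested.

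**Figure D4:**
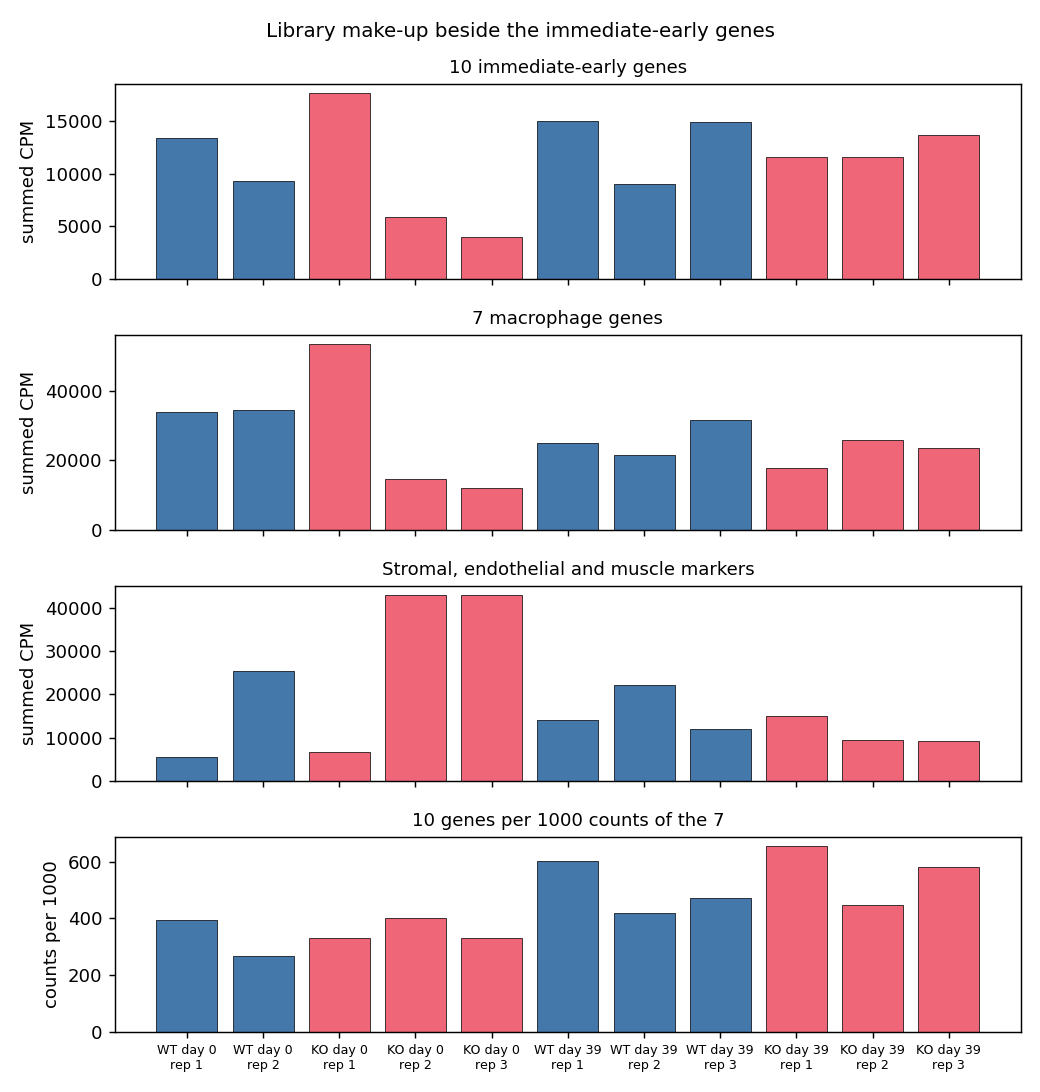
Summed CPM per library of the 10 immediate-early genes, of 7 macrophage genes and of stromal, endothelial and muscle markers, and, in the lowest panel, counts of the 10 genes per 1000 counts of the 7; blue is labelled WT and red labelled KO. KO d0 replicates 2 and 3 are lowest in both upper panels and highest in the third, and in the lowest panel the day 39 libraries, at 420 or more, lie above those of day 0, at 400 or less. In the top panel the days overlap.

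Of the 45 pairs among the 10 genes, 37 had a positive Pearson correlation of log2(CPM + 1) over the 11 libraries, with a median of 0.338 and a range from -0.447 to 0.813, and 0 of 45 passed adjustment. Per count of the 7 macrophage genes 30 of the 45 were positive, and over the 6 day 39 libraries 25 were. Of all pairs of tested genes, 50.3%, 53.5% and 47.0% were positive in the same order. The highest was Junb with Atf3 (r = 0.813, permutation p = 0.00655; Spearman rho = 0.736, permutation p = 0.0130), then Fos with Jun (r = 0.801, permutation p = 0.00372; rho = 0.718, permutation p = 0.0157). Adjusted over the 45 pairs, neither passed (permutation adjusted p = 0.147 for both r and 0.199 for both rho). Without the 2 libraries farthest from the median of the first gene, r was 0.554 for Junb with Atf3 and 0.448 for Fos with Jun, and over the 6 day 39 libraries it was 0.252 and 0.479. Per count of the 7 macrophage genes, r was 0.733 and 0.662. The genes most like the mean of the 10 over the 11 libraries, out of 7115 that averaged 100 counts or more, were Impact (r = 0.935), Gstm1 (r = 0.931), Nfkbia (r = 0.916), Wdr1 (r = 0.903) and Ifi204 (r = 0.856). Of these only Nfkbia was found in all libraries, with 2133 to 20653 counts, while each of the others had a count of 0 in at least 1 library. Impact, Gstm1 and Wdr1 had at most 2 counts in KO d0 replicates 2 and 3, WT d0 replicate 2 and KO d39 replicate 2. These include the libraries where Ier2 or Nr4a1 had 10 counts or fewer, so their r rests partly on low values in the same libraries.

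Of 35 other immediate-early genes listed, 28 were tested, and edgeR called 0 in each of the 6 contrasts, with at most 2 at an unadjusted p under 0.05 (Cyr61 and Hspa1b, averaged over genotypes, where 19.2% of all tested genes had such a p). Klf6, Btg1, Btg2, Zfp36 and Hspa1a, 5 of the 35, had at least 100 counts in every library. Klf6, a zinc-finger factor, was at 1526 CPM ± 325 (SD, n = 2) in WT d0, 619 ± 177 (n = 3) in KO d0, 1110 ± 798 (n = 3) in WT d39 and 1854 ± 402 (n = 3) in KO d39. Btg1, an anti-proliferative gene, was at 581 CPM ± 528 (n = 2), 413 ± 145 (n = 3), 995 ± 984 (n = 3) and 1330 ± 261 (n = 3) in the same order. The heat-shock genes Hspa1a and Hspa1b are near-identical copies, so the split of reads between them is uncertain. Hspa1b had 998 and 955 counts in WT d0, 6213, 1 and 1714 in KO d0, 6151, 8357 and 7364 in WT d39, and 6425, 12293 and 1782 in KO d39, differing by log2 2.55 (SE 0.97, edgeR adjusted p = 0.192) averaged over genotypes. Hspa1a was at 876 CPM ± 131 (n = 2) in WT d0, 506 ± 607 (n = 3) in KO d0, 1098 ± 438 (n = 3) in WT d39 and 2089 ± 599 (n = 3) in KO d39. Egr2, Egr3 and Nr4a2, relatives of Egr1 and Nr4a1, had 10 or fewer counts in 6, 8 and 5 libraries.

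Of 28 genes of cAMP signalling and its targets, 22 were tested and edgeR called 0 in each contrast, with at most 4 at an unadjusted p under 0.05. For genotype at day 0 there were 4 of 22, where 7.99% of all tested genes had such a p. They were Nfil3, Per1, Prkaca and the targeted gene, Ptger4. Per1 and Ptger4 were higher in libraries labelled KO, and Nfil3 and Prkaca lower. Prkaca had 53 and 3965 counts in WT d0 and 0, 1 and 0 in KO d0. Averaged over genotypes there were also 4 (Pde3b, Per1, Ptger4 and Thbs1), where 19.2% of all tested genes had such a p. Rgs2, a CREB target that restrains G-protein signalling, and Gnas, which encodes the Gs subunit itself, were the 2 with at least 100 counts in every library, Rgs2 with 494 to 10706 and Gnas with 164 to 13077. Crem, Crtc2 and Ptger2, which encodes the Gs-coupled prostaglandin E2 receptor EP2, had a count of 0 in all libraries. Creb1 had 1702 and 2912 counts in WT d0, 1197, 119 and 0 in KO d0, 1, 433 and 2 in WT d39, and 579, 500 and 2850 in KO d39. For day in WT, Creb1 differed by log2 -4.21 (SE 3.21, edgeR adjusted p = 0.472), and the KO groups overlapped. It was chosen after its values were seen.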

How the data were processed

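Per the labels' protocols, cells went into Trizol and the RNA into Lexogen QuantSeq libraries, read near the 3′ end. The authors deposited 1 table of raw counts by gene symbol for each library. The submitters' processing notes name Bowtie2, edgeR and hg19, a human build, without roles; the files list mouse symbols, and annotation, strand setting and molecular identifiers are not given in the sources used here. File names give day 35 where titles give day 39; titles were used.

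Counts were tested in edgeR 4.0.16 (R 4.3.3): filterByExpr kept 6987 of 23282 entries, all 10 genes included; TMM scaling, robust quasi-likelihood fit with 1 coefficient per group over 11 libraries, two-sided tests, Benjamini-Hochberg adjustment over all tested genes, threshold 0.05. CPM are counts per 1000000 of the TMM-scaled sum of tested genes. Fold changes are log2, KO against WT or day 39 against day 0; standard errors are the log2 fold change over the square root of F. Correlations were tested with 100000 permutations, two-sided (Python 3.11.15). The procedure was run on simulated counts with differences planted between genotypes at day 39. Its recovery at the spread of these data is not given here, so a count of 0 called does not show that a gene was unchanged. Alternatives used DESeq2 1.42.0, limma 3.58.1, other scalings and filters, a replicate block, and fits without each library.

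The 10 genes and the lists were chosen with earlier results of these data known. Values per contrast are given for the 2 evenly detected genes with the largest difference, a choice made after values were seen; other pathway genes were named by call or by the 4 highest mean CPM (Klf6, Hspa1a, Hspa1b, Btg1), the rest after their values were seen. The labels do not say that replicates came from separate mice, so p-values measure the spread between these samples. Read counts were not shown to be independent molecules.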

Additional observations from a re-analysis of the deposited data

How the results depend on the processing

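For the 10 genes, 60 log2 fold changes were refitted under 21 settings (1260 values): 0 passed an adjusted p of 0.05 in any, the smallest being 0.140, while 172 changed sign, in 49 of the 60 results. Among the 2 genes reported for each contrast, the sign changed for Fos in WT over time (-0.55) and, averaged over genotypes, for Fos (-0.054) and Atf3 (-0.014), all under upper quartile, and for Jun in KO over time (-0.10) without KO d0 replicates 2 and 3. Upper quartile shifts the median of all genes in the WT contrast from 1.64 to 0.48. The cause was not tested.

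Counts of all genes called depended on the processing. For KO against WT at day 0 the main count of 1 was 1249 with DESeq2, 178 with limma-voom, and 0 with library size only, unfiltered genes, a minimum mean of 10, 7 macrophage genes as scale or no KO d0 replicates 2 and 3; leaving out 1 library gave 0 to 5. At day 39 the count of 2 was 585 with DESeq2, 34 with limma-voom, 1 with the macrophage scale, and 0 with upper quartile, unfiltered genes, a minimum mean of 10 or no KO d0 replicates 2 and 3 (0 to 2 leaving out 1 library). For day in WT the count of 1 was 1183 with DESeq2, 169 with limma-voom, 2 with the macrophage scale, and 0 with RLE, library size only, unfiltered genes or a minimum mean of 10 (0 to 1). For day in KO the count of 11 was 1144 with DESeq2, 207 with limma-voom, 5 with a minimum mean of 10, 2 without KO d0 replicates 2 and 3, and 0 with upper quartile or unfiltered genes (5 to 15). The interaction count of 0 was 934 with DESeq2 and 19 with limma-voom; upper quartile gave 5, and it was 2 with RLE, 2 with library size only and 1 with the macrophage scale (0 to 8). Averaged over genotypes, the count of 21 was 1216 with DESeq2 and 202 with limma-voom; upper quartile gave 51, and it was 9 with library size only, 9 without KO d0 replicates 2 and 3, 3 with a minimum mean of 10 and 2 with unfiltered genes (1 to 62, the 62 without KO d0 replicate 1). In the fits above with 0 calls, genes at an unadjusted p under 0.05 numbered 183 to 661 for genotype at day 0, 428 to 643 at day 39, 456 to 522 for day in WT, 1261 to 1405 for day in KO and 1006 for the interaction (leaving out 1 library aside). The macrophage scale and the fit without both libraries were added after seeing the data. The latter leaves 1 KO d0 library, and leaving out a WT d0 library leaves 1 of that group; the lone library is assumed to vary like the other groups.

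No pairing by title number was seen: over 15 same-numbered pairs the deviations correlated at -0.014 to 0.070. With so few libraries per group and their wide spread, a pairing could be missed. With the numbers as a replicate block the counts were 0 for genotype at day 0, 1 at day 39, 0 for day in WT, 12 for day in KO, 0 for the interaction and 7 averaged over genotypes, with 0 of the 10 genes called; 211, 207 and 304 genes had an unadjusted p under 0.05 where the count was 0. At that level, members of the 10 appeared for genotype at day 0 (1 with upper quartile, 2 with limma-voom), day in KO (2 with limma-voom, 2 without KO d0 replicate 1) and day averaged over genotypes (1 without KO d0 replicate 1), and in no other setting tried. In the same order of fits, 610, 794 and 1082 of 6987 tested genes, then 812 and 1423 of 6641, reached that level.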
